A study of Mus musculus with 16 samples.

Results

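The 44 cell cycle genes described here comprise 11 genes of G1 (entry and its control), 14 genes of S phase (licensing, replication and nucleotide supply) and 19 genes of G2 and mitosis. They were chosen by name, and a gene was kept if 4 or more of the 16 kidney libraries gave it a normalized count of 10 or more. All 44 met that minimum, as did 18035 of the 20525 genes in the deposited matrix. Mean normalized counts over the 16 libraries ran from 14.6 for Bub1 to 5728.7 for Ccnd1. These values are not scaled by transcript length, so they do not rank the genes.

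The study measured transcripts in mouse kidney after rhabdomyolysis, the breakdown of skeletal muscle, whose released heme proteins can injure the kidney. RNA came from lysed frozen kidney sections of 30 µm, and mice were 8 weeks old on a background spelled C56BL/6 in the labels. The 4 groups held 4 libraries each: WT given PBS, WT given glycerol, C3-/- given PBS and C3-/- given glycerol, the glycerol being 7.5 ml/kg of a 50% solution injected into a thigh muscle. C3 is the complement protein at which the activation pathways of complement meet. The sources used here do not say how the C3-/- allele was made, which sex the mice were or how long after injection they were sampled. Nothing in the labels says that the 4 libraries of a group came from separate mice, so p-values measure only how far these samples spread, and that spread may be technical.

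Cells enter the cycle when D-type cyclins with Cdk4 and Cdk6, and then cyclin E with Cdk2, phosphorylate the retinoblastoma protein and release E2F factors, which switch on S phase genes. Mitotic genes are turned on later by the MuvB complex with B-Myb and FoxM1, often through a promoter element called CHR and through CCAAT boxes. In the adult kidney few tubular cells cycle, and after acute injury surviving tubular cells re-enter the cycle, with some arresting before division.

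Promoters are shown for 3 S phase genes and 2 mitotic genes whose values the comparisons turn on or contrast with, because the S phase and mitotic genes differed in the letters their promoters hold. Sequences are from RefSeq on GRCm38.p6, end at the base before the start that RefSeq annotates and are written 5′ to 3′ on the strand of the gene. Capitals in Mcm5 and Mcm6 mark the E2F letters TTGGCGC or TTCGCGC on either strand. In Mcm3 they mark the CCAAT box on either strand. In Top2a and Mki67 they mark CHR letters (TTTGAA or TTCGAA) and CCAAT boxes on either strand. Other matches within the stretches stay in lower case. These are E2F letters of Mki67 (TTGGCGC, at -67 from the start) and CCAAT boxes of Mcm5 (-77 and -22) and Mcm6 (-57 and -14).
Mcm5 promoter, chr8:75109339-75109508, plus strand: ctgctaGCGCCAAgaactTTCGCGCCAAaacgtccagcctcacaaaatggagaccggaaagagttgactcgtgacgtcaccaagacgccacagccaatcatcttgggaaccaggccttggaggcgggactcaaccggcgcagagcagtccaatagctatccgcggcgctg
Mcm6 promoter, chr1:128359706-128359825, minus strand: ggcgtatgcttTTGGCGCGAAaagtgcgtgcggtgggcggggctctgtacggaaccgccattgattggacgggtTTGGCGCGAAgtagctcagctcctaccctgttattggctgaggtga
Mcm3 promoter, chr1:20820313-20820432, minus strand: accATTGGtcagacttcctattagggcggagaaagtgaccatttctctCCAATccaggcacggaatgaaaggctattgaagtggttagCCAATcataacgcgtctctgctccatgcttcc
Top2a promoter, chr11:99024190-99024379, minus strand: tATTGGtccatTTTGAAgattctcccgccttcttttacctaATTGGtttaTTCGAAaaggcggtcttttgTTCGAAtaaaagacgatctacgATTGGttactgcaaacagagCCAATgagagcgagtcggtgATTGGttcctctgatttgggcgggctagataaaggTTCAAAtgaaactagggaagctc
Mki67 promoter, chr7:135716380-135716569, minus strand: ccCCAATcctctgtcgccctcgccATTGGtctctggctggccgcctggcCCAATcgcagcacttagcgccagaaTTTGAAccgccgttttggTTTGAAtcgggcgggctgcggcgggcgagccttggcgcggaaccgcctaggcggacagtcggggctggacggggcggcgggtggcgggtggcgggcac

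Of the 44 genes, 34 were matched to the RefSeq table, with 36 promoters of 300 bases (250 before and 50 after the start). E2F letters (TTGGCGC or TTCGCGC or also TTCCCGC, on both strands) were in 61.5% of 13 S phase promoters, 20.0% of 15 mitotic promoters and 12.5% of 8 G1 promoters, against 8.07% of all 32851 promoters in the table. CHR letters were in 80.0% of the mitotic promoters, 15.4% of the S phase promoters and 0 of the G1 promoters, against 19.2% of all. CCAAT was in 93.3%, 69.2% and 37.5% of the mitotic, S phase and G1 promoters, against 37.4% of all. A CHR and a CCAAT box stood together in 80.0% of mitotic promoters and in 7.52% of all. TTGGCGC on one strand and TTCGCGC on the other overlap where the run TTGGCGCGAA occurs, as it does at both places marked in Mcm6, and TTCGAA reads the same on both strands. The E2F letters of Mcm3 lie after the start and so outside the stretch printed. These matches describe letters only.

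Per library, the normalized counts added up to 25.81 M to 38.39 M, and how many reads lie behind them is unknown. Numbers in the sample descriptions run from 1 to 13 over 13 libraries, and 3 libraries repeat the numbers 3, 4 and 5. They are replicate 4 of WT glycerol and replicates 1 and 3 of C3-/- glycerol. What the numbers stand for is not stated. These 3 repeat-numbered libraries stood apart on the first principal component, at 96.4 to 220.4 against -58.6 to 39.5 in the other 13, and 3374 genes were listed at 0 in WT glycerol replicate 4 against 190 to 982 elsewhere. Ddx3y, a gene of the Y chromosome, was at 481.5 to 2302.1 in 11 libraries, and at 1.1 or less in the other 5, all labelled C3-/-. By this sign the WT groups were of one sex and each C3-/- group mixed both sexes. C3 itself was not called lower in libraries labelled C3-/- (log2 difference 1.05 after PBS, limma adjusted p = 0.442). It was at 563.8 to 1139.7 in C3-/- PBS, above 334.9 to 470.5 in WT PBS. After PBS it was called higher over the 13 libraries without a repeated number (limma adjusted p = 0.00968). After glycerol it was called in neither set of libraries, with log2 differences of 0.07 and -0.78. The sources used here do not say which part of C3 was deleted, so this gene does not check the labels. Results are given over all 16 libraries and again over the 13 without a repeated number. Slc34a1 of the proximal tubule (91668.9 to 115321.7 in WT PBS) and Umod of the loop of Henle (139744.6 to 156394.9) were detected in every library, as the kidney label calls for.

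**Figure D1:**
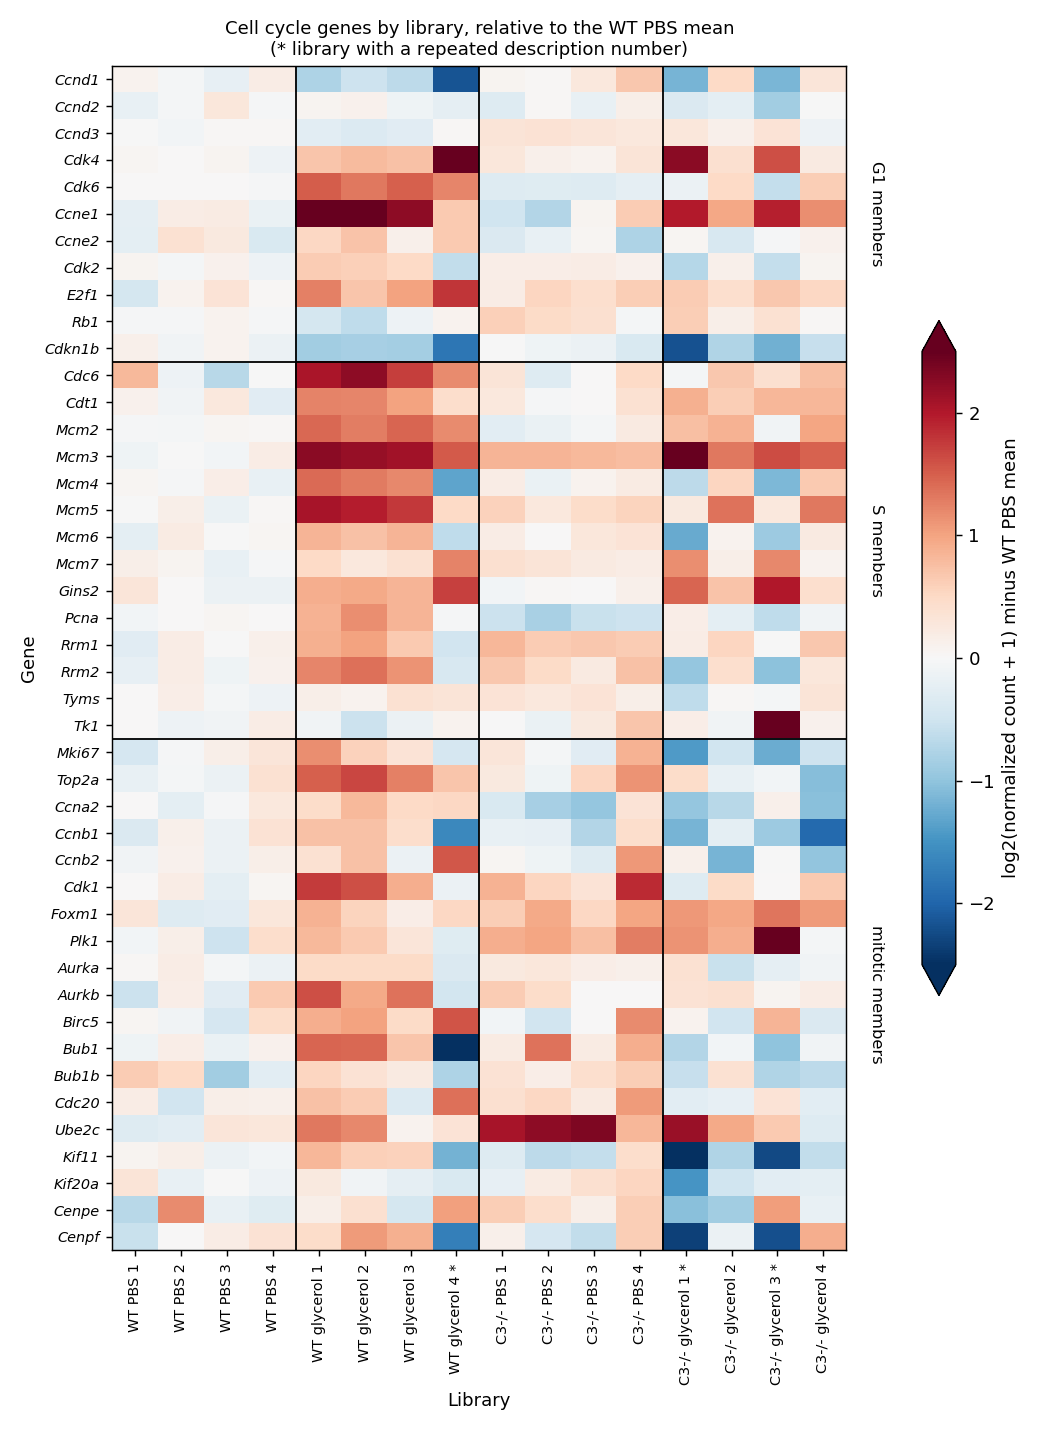
Each cell is log2(normalized count + 1) of one gene (vertical axis, grouped as G1, S and mitotic) in one library (horizontal axis, by group) minus the mean of the 4 WT PBS libraries, and an asterisk marks the 3 repeat-numbered libraries. Colours saturate at 2.5. S phase genes are mostly higher in WT glycerol replicates 1 to 3, with library medians of 0.92 to 1.19, and mitotic genes have library medians of -0.32 to -0.01 in C3-/- glycerol.

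The first comparison asked which cell cycle genes differed after glycerol in WT kidney. Of 14 S phase genes 7 rose and none fell, led by Mcm3 and Mcm2 of the replicative helicase and Cdc6 of its loading. In G1, Cdk6, Ccne1 and E2f1 rose and the CDK inhibitor gene Cdkn1b fell. Of 19 mitotic genes, Top2a alone was called. In all, 11 of 44 were called higher and 1 lower, where 12.5% of all genes tested were called higher and 13.3% lower (25.9% in all) in limma at a Benjamini-Hochberg adjusted p below 0.05. The median log2 fold change was 0.28 over G1, 0.77 over S phase and 0.42 over mitotic genes, against -0.11 over all genes tested. Within the 13 libraries, 24 of the 44 were called higher and 4 lower, where 26.7% and 28.9% of all genes were (55.6% in all). Without WT glycerol replicate 4 alone, 18 were called higher, where 4745 of all genes were called in either direction, against 4666 over 16 libraries. Over all 16 libraries with added terms for the number set and for Ddx3y, 24 were called higher and 4 lower, where 22.8% and 25.8% of all genes were (48.6% in all).

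Cdk6 (ENSMUSG00000040274, GRCm38 chromosome 5, 3341485 to 3531008) encodes a kinase that partners D-type cyclins. Its normalized count was 799.6, 805.8, 801.8 and 776.6 in the WT PBS libraries and 2282.4, 1986.8, 2244.3 and 1867.4 in the WT glycerol libraries. Every glycerol value was far above every PBS value, and replicate 4 was the lowest of them. The log2 fold change was 1.39 ± 0.21 (SE; limma adjusted p = 0.000319), and 1.44 over the 13 libraries. Ccne1, cyclin E1, the partner of Cdk2, had 8.2, 11.2, 11.3 and 8.5 after PBS and 68.9, 59.7, 49.4 and 15.9 after glycerol. The groups did not overlap, but the repeat-numbered replicate 4 lay far nearer to PBS than the other glycerol libraries. Its log2 fold change was 2.03 ± 0.45 (SE; limma adjusted p = 0.00454). These counts are low, and the log2(value + 1) scale understates such changes.

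E2f1, the activator of S phase genes, was at 66.8 ± 14.5 (SD, n = 4) after PBS and 157 ± 52.7 (n = 4) after glycerol, a log2 fold change of 1.19 ± 0.24 (SE; limma adjusted p = 0.00264). Cdkn1b encodes p27, an inhibitor of cyclin E with Cdk2. Its values were 2089.7, 1803.8, 2019.9 and 1729.9 after PBS and 1036.6, 1073.7, 1058.4 and 541.8 after glycerol, with no overlap. It fell by 1.09 ± 0.30 on the log2 scale (limma adjusted p = 0.0146), and by 0.85 over the 13 libraries. The other G1 genes were not called over 16 libraries. Cdk4, the other partner of D-type cyclins, was at 2613.0, 2787.6 and 2654.6 in WT glycerol replicates 1 to 3 and at 9147.8 in replicate 4, against 1467.8 to 1678.4 after PBS. Its log2 fold change was 1.18 with an adjusted p of 0.0565 in limma. Without replicate 4 alone it was 0.74 and also without a call (adjusted p = 0.15), and over the 13 libraries it was 0.74 with an adjusted p of 1.07e-05. It was called over 15 libraries without WT glycerol replicate 3 or C3-/- glycerol replicate 1 or 4 (limma adjusted p from 0.0269 to 0.0497). Over those 13, Cdk4 and Cdk2 were called higher besides Cdk6, Ccne1 and E2f1. Ccnd1 and Ccnd3, which encode D-type cyclins, and Rb1, the retinoblastoma gene, were then called lower with Cdkn1b. Ccnd1 had 5423.9 to 7181.7 after PBS and 3677.0, 4364.9, 4017.5 and 1415.5 after glycerol.

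Of the 6 subunits of the Mcm2-7 helicase, Mcm2, Mcm3 and Mcm5 rose over 16 libraries. Mcm3 (ENSMUSG00000041859, chromosome 1, 20802968 to 20820312) had 78.1, 84.3, 81.1 and 95.9 in WT PBS and 407.0, 388.2, 365.9 and 246.7 in WT glycerol. All glycerol values were above all PBS values, with the lowest in replicate 4. Its log2 fold change was 2.02 ± 0.28 (SE; limma adjusted p = 0.000169), the smallest p among the 44 genes here. Mcm2 went from 279 ± 7.46 (SD, n = 4) to 708 ± 65.5 (n = 4), a log2 fold change of 1.34 ± 0.21 (SE; limma adjusted p = 0.000357). The promoter of Mcm5 (ENSMUSG00000005410, chromosome 8, 75109569 to 75128439), shown above, carries 3 E2F matches, and those at -152 and -149 overlap. Mcm5 had 118.5, 131.6, 105.3 and 120.6 after PBS and 494.9, 468.2, 408.8 and 168.6 after glycerol. Replicate 4 was again nearest to PBS, still without overlap, and the log2 fold change was 1.58 ± 0.34 (SE; limma adjusted p = 0.00335).

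Mcm4 and Mcm6 are subunits of the same ring and were not called over 16 libraries. Mcm4 had 678.9, 624.9 and 582.0 in WT glycerol replicates 1 to 3, above the PBS values of 223.1 to 282.4, and 100.6 in replicate 4, below them. Mcm6 had 1239.1, 1137.9, 1229.8 and 438.0 against 578.4 to 787.1 after PBS. For both genes the repeat-numbered library alone fell under the PBS range. In the 13 libraries their log2 fold changes were 1.31 ± 0.11 (SE; limma adjusted p = 1.76e-06) and 0.81 ± 0.11 (adjusted p = 4.9e-05). Mcm7 had a log2 fold change of 0.60 with an adjusted p of 0.118 in limma, and 0.38 over the 13 libraries (adjusted p = 0.00457).

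Cdc6, which with Cdt1 loads the helicase onto origins, had 34.6, 17.7, 11.6 and 19.2 after PBS and 82.7, 94.5, 66.4 and 44.9 after glycerol. The groups did not overlap, and the log2 fold change was 1.80 ± 0.35 (SE; limma adjusted p = 0.00189). Cdt1 rose by a log2 fold change of 0.97 and Gins2, a subunit of the GINS complex of the active helicase, by 1.11, with limma adjusted p = 0.00314 and 0.0122. Pcna, the sliding clamp of DNA polymerases, had 1020.6 to 1098.4 after PBS and 1943.8, 2386.9, 1912.1 and 1047.1 after glycerol. Replicate 4 lay inside the PBS range, and the log2 fold change was 0.71 ± 0.22 (SE; limma adjusted p = 0.0286). That call ended when any 1 of 7 libraries was left out, namely WT PBS replicates 1 to 4 or WT glycerol replicates 1 to 3 (adjusted p 0.0577 to 0.093). The remaining S phase genes make deoxynucleotides. Rrm1 and Rrm2, subunits of ribonucleotide reductase, were called over the 13 libraries but not over the 16, with log2 fold changes of 0.84 and 1.24 (limma adjusted p = 8.04e-05 and 1.37e-05). Tyms and Tk1, of thymidylate synthesis and salvage, were called in neither set, with 0.24 and -0.17 over 16 libraries.

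Top2a (ENSMUSG00000020914, chromosome 11, 98992943 to 99024189), the topoisomerase that untangles chromosomes, had 75.2, 83.5, 77.6 and 112.7 in WT PBS and 245.8, 275.8, 206.8 and 139.5 in WT glycerol. The groups did not overlap. Its log2 fold change was 1.28 ± 0.34 (SE; limma adjusted p = 0.0121). Mki67, the proliferation marker Ki-67, had 132.4, 174.4, 198.3 and 218.9 after PBS and 400.2, 265.3, 225.1 and 133.5 after glycerol. Replicates 1 to 3 were above the PBS range and replicate 4 was inside it, and the log2 fold change was 0.42 with an adjusted p of 0.392 in limma. Cdk1, the mitotic kinase, had 29.1 to 39.6 after PBS and 118.4, 108.0, 65.9 and 31.4 after glycerol. The log2 fold change of Cdk1 was 1.03 (limma adjusted p = 0.0835). Bub1, of the spindle checkpoint, had 31.9, 31.4 and 18.4 in replicates 1 to 3, above 9.6 to 12.3 after PBS, and was listed at 0 in replicate 4. In the 13 libraries, 7 of 19 mitotic genes were called higher and none lower, where 26.7% and 28.9% of all genes were. The 7 were Top2a, Cdk1, Bub1, Mki67, the mitotic kinases Aurka and Aurkb, and the spindle motor Kif11. Ccnb1, Ccnb2 and Ccna2, the mitotic cyclins, were called in neither set, with 0.07, 0.63 and 0.57 over 16 libraries. Cenpe and Kif20a, a kinetochore and a cytokinesis motor, were at 0.28 and -0.12.

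**Figure D2:**
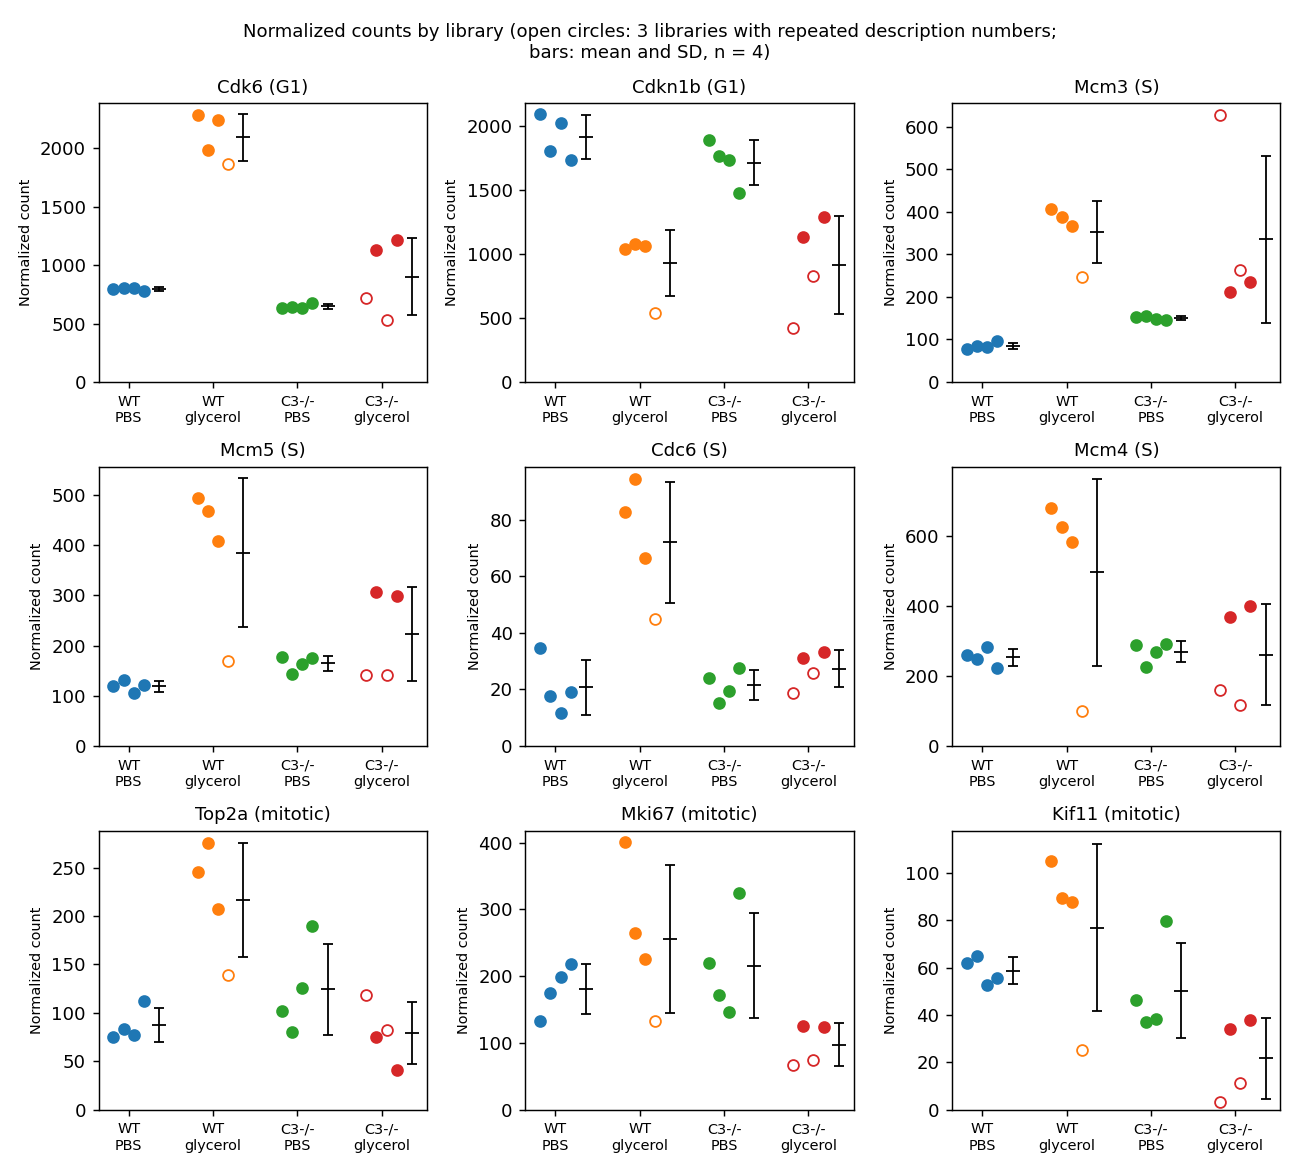
Normalized counts (vertical axes, from 0) of 9 genes in each library of the 4 groups, with open circles for the 3 repeat-numbered libraries and bars for the mean and SD of 4 libraries. Cdk6, Mcm3, Cdc6 and Top2a in WT glycerol lie above WT PBS in every library, whereas Mcm4 of WT glycerol replicate 4 (100.6) lies below the WT PBS range.

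Levels of cell type markers moved as well. In WT glycerol the 5 injured tubule markers (Havcr1, Lcn2, Krt20, Vcam1 and Sox9) summed to 50538.3 to 88816.3, against 410.1 to 576.3 in WT PBS, with 4 of 5 called higher. The 6 proximal tubule markers summed to 18676.4 to 86492.7 against 203354.1 to 239228.7, with 5 of 6 called lower. Cells of the blood also cycle: Ptprc, carried by all leukocytes, was at 130.2 to 586.5 against 525.7 to 701.1, without a call. The 3 neutrophil markers in the matrix (S100a8, S100a9 and Csf3r) were all called higher, with sums of 460.1 to 1040.3 against 129.6 to 203.3, while Ly6g, Mpo and Elane were not in the matrix. Of 6 macrophage and monocyte markers Cd68 was called higher and Csf1r lower, and their sums overlapped, at 2628.1 to 4474.9 against 3130.1 to 3408.9. For T and NK cells 1 of 5 tested markers was called lower, for B and plasma cells none of 5, and for erythroid precursors 2 of 4 were called lower and none higher. Of 2 loop of Henle markers Slc12a1 was called lower, and their sums were 24457.1 to 126306.3 against 201132.6 to 222373.7. Endothelial cells had 1 of 4 lower, collecting duct 1 of 2 lower, podocytes none of 2, and fibroblasts and pericytes 1 of 4 higher and 1 lower. No marker in the matrix was at 0 in all 16 libraries. The part of these shifts in the cell cycle results was not tested. In bulk tissue, a change in the number of cells of a type cannot be told apart from a change in the RNA per cell.

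The second comparison put glycerol against PBS in libraries labelled C3-/-. Over 16 libraries 2 of the 44 were called, both higher: Ccne1 and Gins2. The glycerol values of 4 genes (Ccne1, Cdt1, Mcm3 and Gins2) lay wholly above PBS and those of 4 (Cdkn1b, Mki67, Bub1 and Kif20a) wholly below, where 9.53% and 9.71% of all genes did. The share called over all genes tested was 3.68% higher and 1.96% lower (5.63% in all). The medians of the log2 fold changes were -0.06 for G1, 0.35 for S phase and -0.70 for mitotic genes, against -0.06 for all genes. Over the 13 libraries, with 2 glycerol libraries in this arm, 9 genes were called higher and 5 lower, where 12.4% and 10.6% of all genes were (23.0% in all). Of these, 7 of 14 S phase genes were called higher and none lower, and 3 of 19 mitotic genes lower and none higher. With terms for the number set and Ddx3y there were 9 higher and 4 lower, where 9.92% and 7.9% of all genes were. The count of higher genes over 16 libraries hung on single libraries. It was 5 without WT glycerol replicate 4, 0 without any of WT PBS replicates 1 to 4, C3-/- PBS replicates 1 to 3 or C3-/- glycerol replicate 1, and 1 without C3-/- PBS replicate 4 or any of WT glycerol replicates 1 to 3. WT libraries enter this comparison only through the shared estimate of spread and the adjustment, so their omission left the fold changes as they were. Without WT glycerol replicate 4, 2780 of all genes were called in either direction, against 1016 over 16 libraries. With each library left out in turn, the count over all genes ran from 492 to 2780. Genes called lower among the 44 numbered 3 without WT glycerol replicate 4 and 2 without C3-/- glycerol replicate 2 or 4.

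Ccne1 had 6.6, 5.4, 10.2 and 15.7 in C3-/- PBS and 41.5, 19.9, 39.9 and 22.9 in C3-/- glycerol, where replicates 1 and 3, the repeat-numbered ones, were the highest. The log2 fold change was 1.65 ± 0.45 (SE; limma adjusted p = 0.0467), and 1.2 over the 13 libraries (adjusted p = 0.0287). Gins2 had 339.4 to 391.0 after PBS and 979.9, 582.9, 1424.1 and 475.8 after glycerol, again highest in replicates 1 and 3. It rose by a log2 fold change of 1.12 ± 0.29 (SE; limma adjusted p = 0.037) over 16 libraries and by 0.54 over the 13. Leaving out any 1 of 12 libraries ended the Ccne1 call (adjusted p 0.0511 to 0.142), and any 1 of 10 the Gins2 call (0.0503 to 0.117); both sets hold the 4 WT PBS libraries, C3-/- PBS replicates 1 to 3 and C3-/- glycerol replicates 1 and 3, with WT glycerol replicates 1 to 3 for Ccne1 and C3-/- PBS replicate 4 for Gins2. Cdk6 had 635.0 to 677.8 after PBS and 721.2, 1129.8, 527.4 and 1218.6 after glycerol. The repeat-numbered replicates 1 and 3 lay near PBS or under it, replicates 2 and 4 well above. Its log2 fold change was 0.39 with an adjusted p of 0.251 in limma, and 0.86 over the 13 libraries (adjusted p = 1.3e-05). Cdkn1b had 1471.2 to 1884.2 after PBS and 421.0, 1127.6, 822.9 and 1283.1 after glycerol, with no overlap, a log2 fold change of -1.02 and a limma adjusted p of 0.0586. Its value over the 13 libraries was -0.50 (adjusted p = 0.00537).

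Several S phase genes took opposite positions in the repeat-numbered and the other glycerol libraries. Mcm3 had 145.5 to 154.2 in C3-/- PBS and 626.8, 212.4, 263.8 and 235.8 in C3-/- glycerol, all above PBS. Mcm5 had 143.2 to 176.3 and then 140.3, 307.3, 142.2 and 299.3, and Mcm4 had 226.5 to 292.1 and then 159.7, 367.2, 115.7 and 400.9. For Mcm4 and Mcm5 replicates 2 and 4 were above the PBS range, and the repeat-numbered replicates 1 and 3 below it. The log2 fold change of Mcm3 was 1.00 (limma adjusted p = 0.0517) over 16 libraries and 0.57 (adjusted p = 0.00346) over the 13. That of Mcm5 was 0.34 (limma adjusted p = 0.513) and 0.88 (adjusted p = 0.00046). Mcm4 turned from -0.23 (limma adjusted p = 0.786) to 0.52 (adjusted p = 0.0116). Mcm2, Pcna, Cdt1 and Gins2 were the others called higher over the 13 libraries, at 1.00, 0.44, 0.56 and 0.54. Rrm2 was at -0.85 over 16 libraries and -0.18 over the 13, called in neither.

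For mitotic genes in libraries labelled C3-/-, 17 of 19 log2 fold changes were below 0, where 9676 of 18035 genes tested were. None of the 19 was called over 16 libraries. At an unadjusted p below 0.05, 5 of the 44 genes were higher and 5 lower in limma, where 24.7% of all genes passed that level. The authors' deposited table for this comparison called 2 of 19 mitotic genes lower and none higher, where 15.5% of its genes were called in either direction. Mki67 had 219.3, 171.7, 146.1 and 324.3 in C3-/- PBS and 66.5, 125.0, 74.7 and 124.6 in C3-/- glycerol. Every glycerol value was under every PBS value, with a log2 fold change of -1.12 ± 0.34 (SE; limma adjusted p = 0.0678). Top2a had 101.8, 80.3, 125.9 and 189.3 after PBS and 118.7, 75.5, 82.2 and 40.6 after glycerol, overlapping ranges. Over the 13 libraries Top2a, Ccnb2 (cyclin B2) and Ube2c, the E2 enzyme of the anaphase-promoting complex, were called lower, at -1.08, -1.24 and -1.54 (limma adjusted p = 0.0291, 0.0253 and 0.0395). The 2 glycerol values of Ube2c there were 31.5 and 12.5, against 68.8, 77.8, 83.4 and 29.0 after PBS. With the terms for the number set and Ddx3y, Top2a and Ube2c were not called (adjusted p = 0.214 and 0.14), and Ccnb2 was (0.00683). Injured tubule markers summed to 276.4 to 437.3 in C3-/- PBS and 1774.5 to 15171.0 in C3-/- glycerol, with 4 of 5 called higher, and their part here was not tested. Proximal tubule sums were 198734.3 to 273981.8 and 51427.9 to 240783.0, the last in the repeat-numbered replicate 3.

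**Figure D3:**
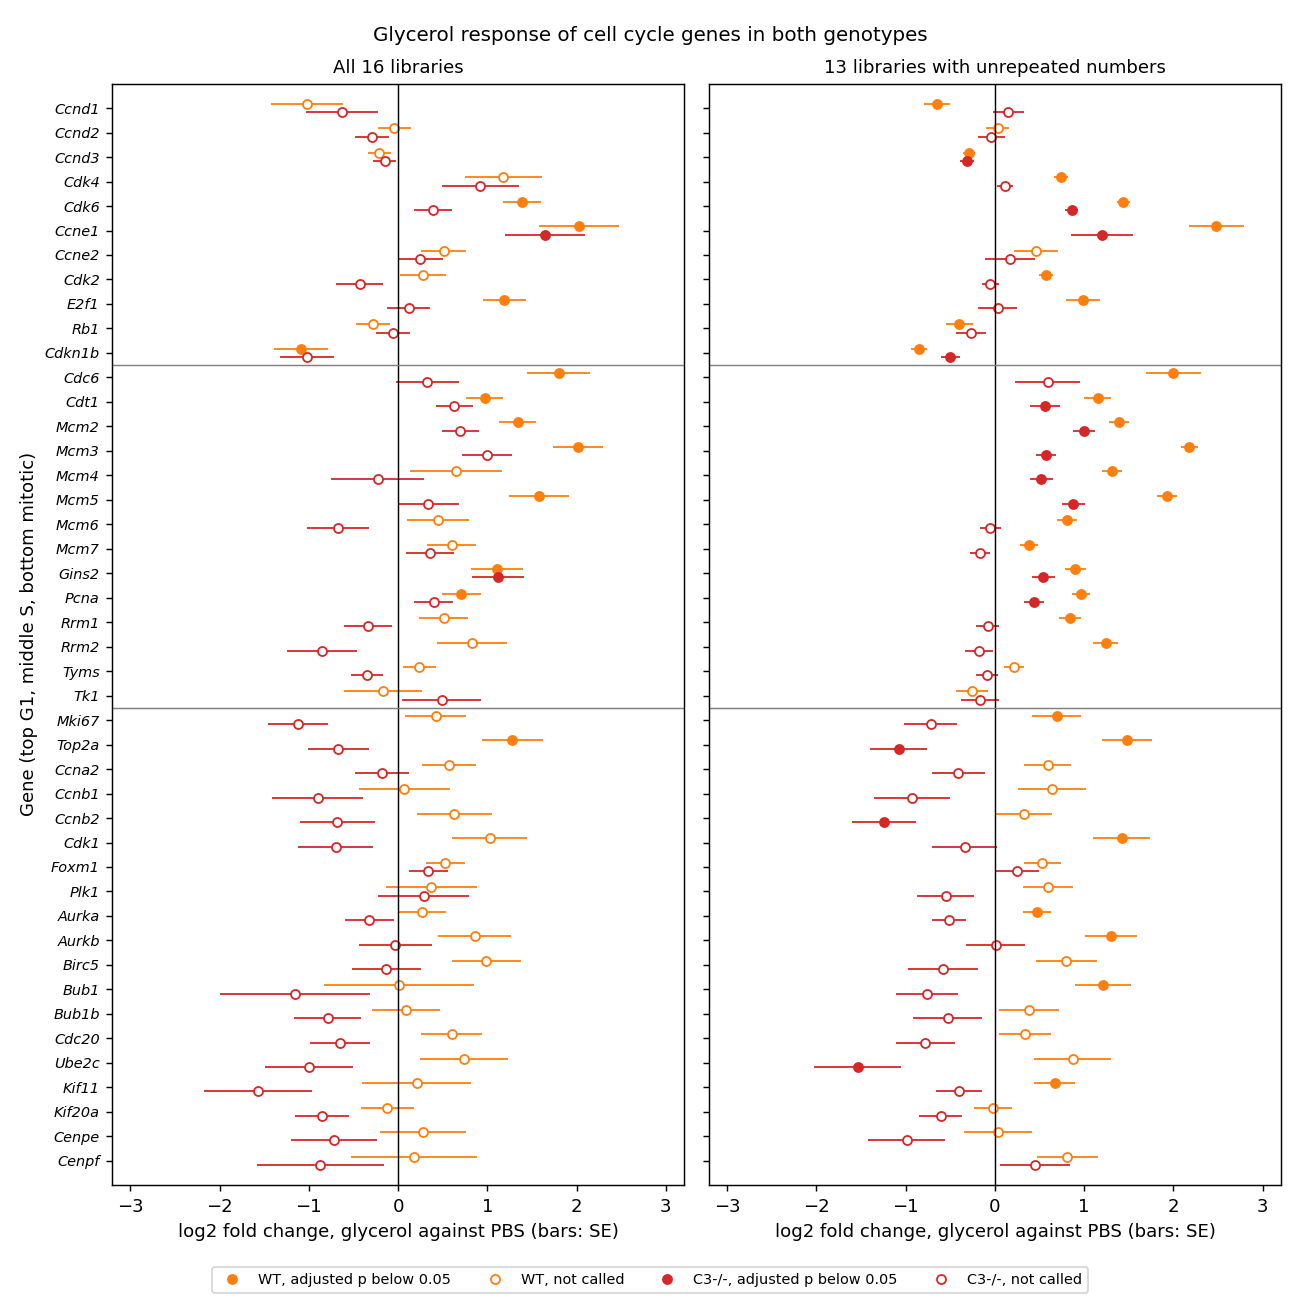
Log2 fold change of glycerol against PBS (horizontal axes, bars are SE) for each gene (vertical axis, G1 at the top, S in the middle, mitotic at the bottom) in WT and C3-/-, over 16 libraries on the left and over the 13 on the right; filled points were called by limma. On the left the mitotic medians are 0.42 in WT and -0.70 in C3-/-, and on the right the S phase points of WT (median 1.05) sit to the right of those of C3-/- (median 0.48).

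A further comparison tested the difference between the glycerol responses of the genotypes directly, as an interaction in which a negative value means a lower response in C3-/-. Over 16 libraries none of the 44 genes was called, where 0.438% of all genes were. At an unadjusted p below 0.05 in limma, none was higher and 16 were lower, where 10.5% of all genes passed in either direction. Without WT glycerol replicate 4 there were 5 called lower (of all genes 225 were then called in either direction, against 79), and without C3-/- glycerol replicate 1 there were 2. The count over all genes ran from 38 to 225 with each library left out in turn. The sign was negative for all 19 mitotic genes and for 12 of 14 S phase and 7 of 11 G1 genes, where it was for 8491 of 18035 genes tested. The medians were -1.05, -0.75 and -0.26 in that order, against 0.03 over all genes tested. The smallest adjusted p was that of Top2a, with an interaction of -1.95 ± 0.48 (SE; limma adjusted p = 0.0938). The Top2a responses behind it were 1.28 in WT and -0.67 in C3-/-.

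Over the 13 libraries 17 of the 44 interactions were called lower and 1 higher, where 5.42% and 4.88% of all genes were (10.3% in all). Those called lower were 8 S phase genes (Mcm3, Mcm4, Mcm5, Mcm6, Mcm7, Pcna, Rrm1 and Rrm2), 6 mitotic genes (Top2a, Cdk1, Mki67, Aurka, Bub1 and Ube2c) and the G1 genes Cdk6, Cdk4 and Cdk2. Mcm3 stood at -1.61 ± 0.15 (SE; limma adjusted p = 0.000355), from responses of 2.18 in WT and 0.57 in C3-/-. Rrm2 stood at -1.41 ± 0.21 (limma adjusted p = 0.00272), from 1.24 and -0.18. Top2a stood at -2.55 ± 0.43 (limma adjusted p = 0.00454), from 1.48 and -1.08. Ccnd1, cyclin D1, was the one called higher, at 0.80 (limma adjusted p = 0.0426). Its WT glycerol values in that set, 3677.0 to 4364.9, were under those of C3-/- glycerol, 8938.3 and 7749.1. With terms for the number set and Ddx3y over all 16 libraries, 13 interactions were called lower and 1 higher, where 3.64% and 4.71% of all genes were (8.35% in all). Mcm3 was not called there (adjusted p = 0.121), and Top2a, Rrm2, Cdk6 and Mki67 were.

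**Figure D4:**
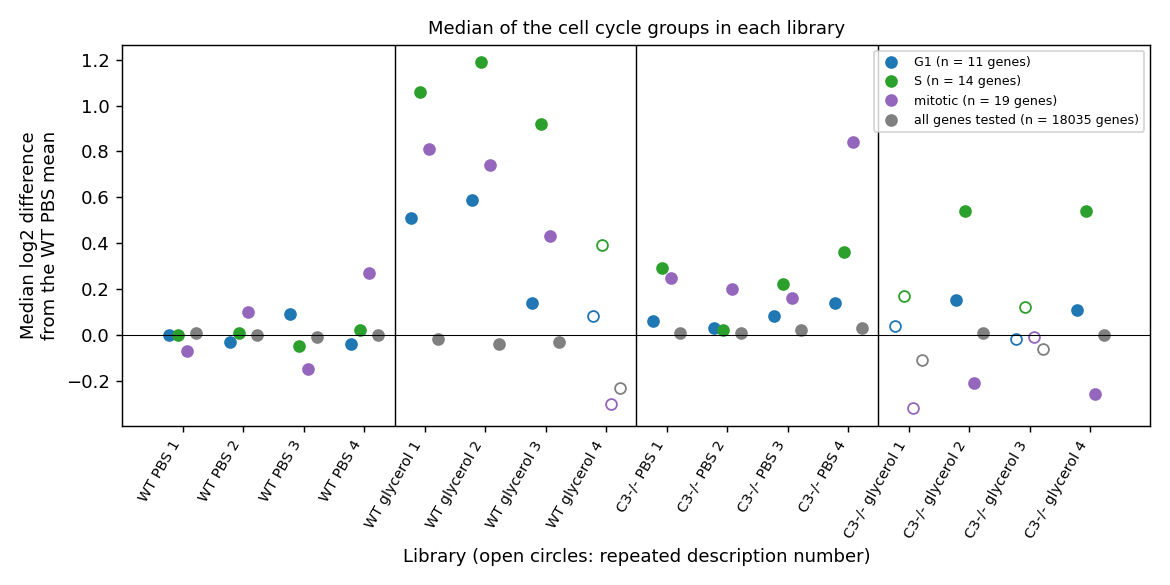
Each point is the median over the G1, S or mitotic genes, or over all genes tested, of the log2 difference from the WT PBS mean (vertical axis) in one library (horizontal axis), with open circles for the repeat-numbered libraries. S phase medians are 0.92 to 1.19 in WT glycerol replicates 1 to 3 and 0.39 in replicate 4, and mitotic medians are below 0 in all 4 C3-/- glycerol libraries.

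The spread between libraries can be read from medians per library. S phase medians, relative to the WT PBS mean, were 1.06, 1.19, 0.92 and 0.39 in the WT glycerol libraries and 0.17, 0.54, 0.12 and 0.54 in the C3-/- glycerol libraries. Mitotic medians were 0.81, 0.74, 0.43 and -0.30 in WT glycerol and -0.32, -0.21, -0.01 and -0.26 in C3-/- glycerol. In C3-/- PBS the S phase medians were 0.29, 0.02, 0.22 and 0.36 and the mitotic medians 0.25, 0.2, 0.16 and 0.84. The C3-/- glycerol and C3-/- PBS libraries overlapped in S phase medians, and all 4 mitotic medians of C3-/- glycerol were below those of C3-/- PBS. The repeat-numbered WT library thus had a mitotic median in the range of the C3-/- glycerol libraries, and its S phase median was within theirs as well.

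The next comparison set C3-/- against WT after glycerol. Of the 44 genes 8 were called lower and none higher, where 4.85% of all genes were called lower and 6.38% higher (11.2% in all). They were Cdk6 of G1, Pcna, Cdc6 and Mcm2 of S phase, and the mitotic genes Top2a, Ccna2, Mki67 and Kif11. The medians were -0.33, -0.51 and -0.70 for G1, S phase and mitotic genes, against 0.04 over all genes tested. Over the 13 libraries 22 were called lower and 2 higher, where 14.6% and 15.5% of all genes were (30.1% in all). The count of lower genes was 17 without WT glycerol replicate 4 (of all genes 4396 were then called in either direction, against 2025). It was 4 and 2 without WT glycerol replicate 1 or 2, and 5 without C3-/- glycerol replicate 3. Among the 44, 2 genes were called higher without WT or C3-/- glycerol replicate 4. Over all genes the count ran from 1385 to 4396 with each library left out in turn. The WT glycerol libraries enter the WT response, the difference between responses and this comparison, and the C3-/- glycerol libraries enter all but the WT response. The PBS libraries of both genotypes also enter the difference between responses. These results are therefore not independent of each other.

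Cdk6 had 1867.4 to 2282.4 in WT glycerol and 721.2, 1129.8, 527.4 and 1218.6 in C3-/- glycerol, with no overlap, a log2 difference of -1.29 ± 0.21 (SE; limma adjusted p = 0.00114). Top2a had 139.5 to 275.8 in WT and 40.6 to 118.7 in C3-/-, again with no overlap, and a log2 difference of -1.49 ± 0.34 (SE; limma adjusted p = 0.0095). Those calls held with each library left out in turn. Ccna2, cyclin A2, had 138.9, 176.4, 143.3 and 144.0 in WT and 51.2, 61.6, 110.0 and 48.2 in C3-/-. The groups did not overlap, and the log2 difference was -1.22 (limma adjusted p = 0.0172; 0.0549 without WT glycerol replicate 2). Mki67 had 133.5 to 400.2 in WT and 66.5 to 125.0 in C3-/-, close to touching because of WT replicate 4. Its log2 difference was -1.33 (limma adjusted p = 0.02). The call of Mki67 ended without WT glycerol replicate 1 or 2 or C3-/- glycerol replicate 3 (adjusted p = 0.0688, 0.0577 and 0.0584).

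Cdc6 had 44.9 to 94.5 in WT and 18.7, 31.2, 25.9 and 33.3 in C3-/-, a log2 difference of -1.35 (limma adjusted p = 0.0216; 0.0642 and 0.0736 without WT glycerol replicate 1 or 2). Pcna had 1047.1 to 2386.9 in WT and 689.5 to 1193.1 in C3-/-, which overlapped through WT replicate 4, and a log2 difference of -0.91 (limma adjusted p = 0.0151; 0.055 without WT glycerol replicate 2). Mcm2 (-0.71, limma adjusted p = 0.0389) and Kif11 (-2.07, 0.039) were the least stable. The Mcm2 call ended when any 1 of 11 libraries was left out and the Kif11 call when any 1 of 12 was, with adjusted p of 0.0511 to 0.0972 and 0.0523 to 0.108: each of WT PBS replicates 1 to 4, C3-/- PBS replicates 1 to 3, WT glycerol replicates 1 to 3 and C3-/- glycerol replicate 3, and for Kif11 also C3-/- glycerol replicate 1. Kif11 had 3.3 and 11.4 in C3-/- glycerol replicates 1 and 3 and 34.3 and 37.8 in replicates 2 and 4. WT glycerol replicate 4, at 25.4, lay between them, and the other WT libraries were at 87.6 to 105.2. Its difference over the 13 libraries was -1.36 (limma adjusted p = 0.00355).

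Foxm1 and Plk1 went the other way without a call, at 0.58 and 0.90 (limma adjusted p = 0.114 and 0.296). Plk1, a mitotic kinase, had 177.5 in C3-/- glycerol replicate 3 and 19.4 to 44.9 in the others. Tk1 had 1345.3 in the same library and 216.6 to 256.4 in the others. Rb1 had 995.3 to 1637.0 in WT glycerol and 1589.9 to 2389.7 in C3-/- glycerol (log2 difference 0.57, limma adjusted p = 0.0637). Markers differed here too: injured tubule sums were 1774.5 to 15171.0 in C3-/- against 50538.3 to 88816.3 in WT (4 of 5 lower), neutrophil sums 66.7 to 200.8 against 460.1 to 1040.3 (3 of 3 tested lower), and fibroblast and pericyte sums 1742.0 to 4204.0 against 3503.9 to 8253.7 (2 of 4 lower). Called higher in C3-/- were both collecting duct markers (Aqp2 and Atp6v1b1), Slc12a1 of the 2 loop of Henle markers, Epor and Klf1 of the 4 erythroid precursor markers and Jchain of 5 B and plasma cell markers. Of 6 macrophage and monocyte markers Csf1r was called higher and Ccr2 lower. Neutrophil sums were already lower after PBS, at 25.9 to 46.6 in C3-/- against 129.6 to 203.3 in WT, with S100a8 and S100a9 called lower. Fibroblast and pericyte sums were too, at 2029.8 to 2768.7 against 3125.0 to 5581.9, with no marker called. Injured tubule sums overlapped after PBS, at 276.4 to 437.3 against 410.1 to 576.3. The part of these markers in the cell cycle results was not tested. Because the C3-/- groups mixed sexes and WT did not, sex and genotype are partly confounded. With terms for the number set and Ddx3y 13 of the 44 were called lower and 4 higher, where 13.1% and 17.6% of all genes were (30.7% in all). The 8 genes were all among the 13, with log2 differences from -1.54 for Top2a to -0.61 for Mcm2.

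The last comparison set C3-/- against WT after PBS. No member of the 44 was called over 16 libraries, where 2.23% of all genes were (1.04% higher and 1.19% lower); at an unadjusted p below 0.05 in limma 6 were higher and 1 lower, where 10.4% of all genes passed. Leaving out C3-/- glycerol replicate 1 gave 2 called higher, leaving out C3-/- PBS replicate 4 or C3-/- glycerol replicate 4 gave 1, and leaving out WT glycerol replicate 4 gave 1 higher and 1 lower. Over all fits with 1 library left out, 220 to 609 of all genes were called in either direction, against 402 over 16 libraries. The values of 13 genes lay wholly above WT and those of 2 wholly below, where 13.9% and 13.1% of all genes did (27.0% in all). Over the 13 libraries the spread was smaller and 9 were called higher and 2 lower, where 9.29% of all genes were called higher (19.3% in either direction). Mcm3 was at 145.5 to 154.2 in C3-/- PBS and 78.1 to 95.9 in WT PBS, a log2 difference of 0.82 (limma adjusted p = 0.201; 9.59e-05 over the 13). Pcna was at 606.9 to 745.8 against 1020.6 to 1098.4, a log2 difference of -0.60 (limma adjusted p = 0.251; 0.000759 over the 13). So 2 genes of the same replication fork lay apart from WT in opposite directions in every PBS library.

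Ube2c had 68.8, 77.8, 83.4 and 29.0 in C3-/- PBS and 12.5 to 19.6 in WT PBS. The lowest of the C3-/- values was that of replicate 4, the one with Ddx3y. The log2 difference was 1.86 ± 0.49 (SE; limma adjusted p = 0.0667; 0.00778 over the 13), and 0.76 with terms for the number set and Ddx3y (adjusted p = 0.462). Rb1 was also lowest in replicate 4, at 1495.6 against 2353.8, 2172.2 and 2039.2 in replicates 1 to 3, and had 1516.4 to 1652.8 in WT PBS. With those terms 1 gene was called, Cdk1, higher at 1.47 (limma adjusted p = 0.0373), and none lower, where 1.21% of all genes were called higher and 1.71% lower (2.93% in all). That call leans on replicate 4, the only C3-/- PBS library with Ddx3y. Cdk1 was at 29.1 to 39.6 in WT PBS, at 44.4 to 64.1 in C3-/- PBS replicates 1 to 3 and at 129.3 in C3-/- PBS replicate 4. Mki67, Cdk1, Ccnb2 and Birc5 were each highest in replicate 4 of C3-/- PBS, at 324.3, 129.3, 60.6 and 80.5, and its mitotic median was 0.84 against 0.16 to 0.25 in replicates 1 to 3. Birc5 encodes survivin of the chromosomal passenger complex.

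Genes of the same pathways outside the 44 were counted from 6 further lists. In WT after glycerol, 13 of 37 other replication genes were called higher and 1 lower, 11 of 37 other mitotic genes higher and 1 lower, and 9 of 26 checkpoint and CDK activation genes higher and 1 lower, where 12.5% and 13.3% of all genes were. In C3-/- after glycerol the counts were 3 and 0, 2 and 1, and 3 and 0, where 3.68% and 1.96% of all genes were called. In C3-/- against WT after glycerol they were 1 and 4, 2 and 5, and 0 and 1, where 6.38% and 4.85% were. The counts moved with the libraries used. Within the 13 libraries, 27 replication genes were higher and 2 lower in WT, 20 mitotic genes higher and 4 lower, and 15 checkpoint genes higher and 2 lower, where 26.7% and 28.9% of all genes were. In C3-/- they were then 7 and 1, 3 and 7, and 7 and 2, where 12.4% and 10.6% of all genes were, and between the genotypes after glycerol 1 and 18, 2 and 15, and 1 and 8, where 15.5% and 14.6% were. The interaction within the 13 was called lower for 15 replication, 10 mitotic and 3 checkpoint genes and higher for none of them, where 4.88% of all genes were called higher and 5.42% lower. With terms for the number set and Ddx3y it was lower for 10, 3 and 1 and higher for 1, 0 and 0, where 4.71% were called higher and 3.64% lower. Uhrf1, which brings the maintenance DNA methyltransferase to replicated DNA, had 47.5 to 61.6 in WT PBS, 466.7 to 697.3 in WT glycerol, 89.2 to 149.9 in C3-/- PBS and 180.1 to 421.3 in C3-/- glycerol. None of the 4 groups overlapped another. Its interaction was -2.13 ± 0.35 (SE; limma adjusted p = 0.012), the one call of the interaction among these 6 lists over 16 libraries (0.438% of all genes were called), from responses of 3.42 in WT and 1.29 in C3-/-. Cks1b, a CDK subunit, rose by 2.7 in WT and 1.73 in C3-/- (limma adjusted p = 8.81e-06 and 0.00143).

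Inhibitors, p53-linked genes and growth signals made up the other lists. Cdkn1a, the inhibitor p21, had 187.6 to 269.1 in WT PBS and 1734.1 to 4052.0 in WT glycerol, and 104.8 to 171.3 and 442.0 to 2293.5 in C3-/-. It rose in both genotypes, by 3.43 and 3.11 (limma adjusted p = 4.21e-05 and 0.000453), and the interaction was -0.32 ± 0.57 (SE; adjusted p = 0.965). Of 6 inhibitor genes tested 2 were called higher in WT (Cdkn1a and Cdkn3) and 1 lower (Cdkn2c). Of all genes, 12.5% were called higher and 13.3% lower there. Trp53, the p53 gene, rose by 1.23 in WT and 0.94 in C3-/-, and Gadd45a, a stress-induced growth arrest gene, by 1.96 and 2.12 (limma adjusted p = 0.000185, 0.00543, 0.000257 and 0.000621). Myc, a driver of G1 entry, had 126.2 to 174.3 in WT PBS and 1069.8 to 1817.0 in WT glycerol, and 105.7 to 191.2 and 698.9 to 1799.7 in C3-/-. Its log2 fold changes were 3.17 and 3.01 (limma adjusted p = 5.04e-06 and 3.89e-05), with an interaction of -0.16 ± 0.41 (SE; adjusted p = 0.979). Of 12 growth signal genes 3 were called higher in WT (Myc, Areg and Hbegf) and 1 lower (Egf) over 16 libraries. In C3-/- Myc and Areg were called higher, where 3.68% of all genes were called higher and 1.96% lower. Within the 13, 5 were higher and 1 lower in WT, where 26.7% and 28.9% of all genes were. In C3-/- the counts were 4 and 1, where 12.4% and 10.6% of all genes were called. Of 16 E2F, pocket protein and MuvB genes, E2f4 and E2f3 were called higher in WT and Tfdp2 and Rbl2 lower over 16 libraries. Those counts were near the shares over all genes, 12.5% higher and 13.3% lower. In C3-/- none was called. Within the 13, 6 of these 16 genes were higher and 3 lower in WT, where 26.7% and 28.9% of all genes were. In C3-/- E2f3, E2f6, Tfdp1 and E2f4 were higher and Rbl2 and Lin52 lower, where 12.4% and 10.6% were. With terms for the number set and Ddx3y, E2f3, E2f6 and Tfdp1 were higher in C3-/- and Rbl2 and Tfdp2 lower. Of all genes, 9.92% were then called higher and 7.9% lower.

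The authors' deposited table for WT called 17 of the 44 genes higher and 1 lower at an adjusted p below 0.05, where 28.9% of its genes were called. In the authors' deposited table for C3-/-, 5 were higher and 3 lower, where 15.5% were. The authors' deposited table for glycerol C3-/- against WT had 2 higher and 12 lower, where 16.8% were. Among those lower, 7 of the 12 were mitotic.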

How the data were processed

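The members and gene lists were chosen with earlier results of these data known. The authors deposited normalized counts per gene for 16 libraries, an unlogged signal, and tables of their own comparisons with log2 fold changes, a test score (stat) and p-values. The submitters' processing notes name the aligner STAR 2.7.1, the package DESeq2, R 3.6.1 and the build GRCm38, and per the file headers gene identifiers follow Ensembl release 96. Which program counted reads, and with what strand setting, the sources used here do not state. Deposited values were not whole multiples of 1 read for most genes. The step taken as 1 read was searched for in each library. At the best step 14.7 to 50.0% of values under 30 fell within 0.02 of a whole multiple. That tolerance alone gives 4.0% for a fixed step, which is not a like measure for the best step of a search. Reads were thus not recovered, the depth stays unknown and count models were not used.

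From these values log2(value + 1) was computed for 18035 genes with at least 10 in at least 4 libraries. All 16 libraries were fitted together with limma 3.58.1 in R 4.3.3 (4 group means, 12 residual degrees of freedom, variance trend, Benjamini-Hochberg adjustment over all genes, called below 0.05). The fit was run on simulated data with known changes and independent normal spread in each gene. Those data held no libraries set apart as here, so they cannot show how calls bear such libraries. All 44 members may be named, in full those called with the smallest p (up to 10 a comparison), and up to 4 called genes a pathway list. Some genes without a call were described after their values were seen. Alternatives were other pseudocounts (0.5 and 8), no filter or a mean of 100, a common median ratio, quantile scaling, no trend, array weights, a replicate block, the 13 libraries, terms for the number set and Ddx3y, and leaving out each library. A left-out library outside a comparison moves it only through the shared estimate of spread and the adjustment. Same-numbered libraries were checked for pairing, and 4 of 24 pairs correlated above 0.1 (-0.692 to 0.385). The labels give them no link beyond the number. Whether they share a litter or day could not be decided, because the 3 repeat-numbered libraries weigh heavily on the glycerol deviations. The values of 1 gene of the pathway lists are not reported here.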

Additional observations from a re-analysis of the deposited data

Results flagged for a closer look

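In 19 of 176 gene and group combinations, the gap between 1 library and the nearest of the other 3, as a share of the group's range, passed the 95% critical value of Dixon's test. Chance sets apart about 1 in 20 such groups. The repeat-numbered libraries held 12 of the 19, with 8 in WT glycerol replicate 4.

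In WT glycerol replicate 4, Ccnd3 was high at 1922.2 (others 1492.0 to 1557.7), Cdk4 at 9147.8 (2613.0 to 2787.6) and Gins2 at 1175.2 (641.9 to 691.3). In the same library Cdk2 was low at 262.1 (571.9 to 622.8), Cdkn1b at 541.8 (1036.6 to 1073.7) and Aurka at 24.6 (44.3 to 44.5). The helicase subunits Mcm4 and Mcm6 were low there too, at 100.6 (582.0 to 678.9) and 438.0 (1137.9 to 1239.1). Genes of G1 and of S phase were thus set apart in both directions, and the mitotic gene Aurka was low.

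In C3-/- glycerol replicate 3, Tk1 was high at 1345.3 (216.6 to 256.4), Plk1 at 177.5 (19.4 to 44.9) and Cdc20, the activator of the anaphase-promoting complex, at 37.7 (24.5 to 25.5). In C3-/- glycerol replicate 1, Mcm3 was high at 626.8 (212.4 to 263.8).

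The other 7 were in libraries without a repeated number. Rb1 stood at 1652.8 in WT PBS replicate 3 (1516.4 to 1516.7), and in WT PBS replicate 2 Cdc20 was low at 21.1 (32.4 to 34.0) and Cenpe high at 110.0 (29.2 to 41.8). Ccna2 was high at 176.4 in WT glycerol replicate 2 (138.9 to 144.0). Pcna was low at 606.9 in C3-/- PBS replicate 2 (728.8 to 745.8), and Ccnb2 high at 60.6 in C3-/- PBS replicate 4 (22.3 to 28.8). Bub1b, of the spindle checkpoint, was high at 61.5 in C3-/- glycerol replicate 2 (27.4 to 31.2).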

How the results depend on the processing

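Of the 220 gene results, each under up to 28 settings, values kept direction and side of the threshold 5661 times, passed it 334 times, lost it 66 times and reversed 4 times. Results called in neither fit counted as kept, and 154 of those 5117 changed sign. Depth is unknown, so its limits could not be set. The reversals were all Mcm4 in C3-/- glycerol against PBS, from -0.23 to 0.46 with array weights, 0.52 over the 13 libraries, 0.76 with a term for the number set and 0.77 with Ddx3y added. The cause was not tested. The array weights fit gave a convergence warning, so its values here and below are an alternative only. The 100 minimum mean tests only 25 of the 44 genes.

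In these counts the settings come in the order array weights (the fit with the warning), 13 libraries, number set, number set with Ddx3y. WT glycerol against PBS had 11 members higher over 16 libraries and 29, 24, 22 and 24 in turn (10 to 18 leaving out 1 library), 1 lower and 4, 4, 4 and 4, and 4666 of all genes and 10902, 10028, 8339 and 8763. C3-/- glycerol against PBS had 2 higher and 9, 9, 8 and 9 (0 to 5 leaving out 1), 0 lower and 7, 5, 2 and 4 (0 to 3), and 1016 of all genes and 5589, 4142, 2608 and 3213 (492 to 2780). C3-/- against WT after glycerol had 0 higher and 3, 2, 3 and 4 (0 to 2), 8 lower and 25, 22, 17 and 13 (2 to 17), and 2025 of all genes and 6439, 5432, 5720 and 5533 (1385 to 4396). After PBS it had 0 higher and 13, 9, 6 and 1 (0 to 2), 0 lower and 4, 2 and 1 in the first 3 settings (0 to 1), and 402 of all genes and 6869, 3481 and 1510 (220 to 609). The difference between responses had 0 higher and 1 in each setting, 0 lower and 27, 17, 9 and 13 (0 to 5), and 79 of all genes and 3225, 1858, 1324 and 1506 (38 to 225).

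Other settings moved fewer counts. In C3-/- glycerol against PBS, members higher were 1 with pseudocount 8, 1 without the filter and 4 with quantile scaling, and members lower 1 with the minimum mean of 100 and 1 with quantile scaling. In C3-/- against WT after glycerol the minimum mean of 100 gave 5 lower and 1262 of all genes, and after PBS 203 of all genes, where quantile scaling gave 1 member higher. For the difference between responses, genes called numbered 141 with pseudocount 8 and 48 with the minimum mean.

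With the replicate block, members higher in C3-/- glycerol against PBS fell to 0, genes called there to 632, and genes called for the difference between responses to 41. The block ended the calls of Pcna in WT (adjusted p = 0.0528), Ccne1 and Gins2 in C3-/- (0.089 and 0.083), and Mcm2 and Kif11 after glycerol (0.073 and 0.0735), all in limma. The labels give same-numbered libraries no link beyond the number.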
